A study of Homo sapiens with 6 samples.

Results

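AKR1C1, AKR1C2, CYP1A1, ALDH3A1, GPX2 and SLC7A11 are 6 genes of oxidative and chemical defence that were taken by symbol from the authors' deposited table of changed genes, in which all 6 were found among 1305 genes. Expression had been measured by RNA sequencing in NCI-H292, an established human lung cancer cell line. The 3 mitoxantrone libraries came from cells kept for 48 hours with 50 nM mitoxantrone, an anticancer agent that holds topoisomerase II in its DNA-cleaving state, and the 3 DMSO libraries from cells given the solvent at a dilution of 1 in 1000 for the same time. Every library came from the same line, and each treatment was given at 1 dose and read at 1 time. Separate cultures are not recorded in the labels, and the p-values below therefore refer to the spread among these libraries, which may be technical.

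Most of these genes are known targets of NRF2, a transcription factor that the adaptor KEAP1 marks for degradation until oxidants or electrophiles modify KEAP1. Freed NRF2 pairs with small Maf proteins on antioxidant response elements and raises enzymes that reduce, conjugate or export reactive compounds. CYP1A1 and ALDH3A1 are known targets of a second sensor, the aryl hydrocarbon receptor (AHR), which pairs with ARNT on xenobiotic response elements when it binds polycyclic hydrocarbons. Airway epithelium is exposed to both kinds of compound, and lung cancers often carry an active NRF2 pathway.

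Promoter sequences are shown for the motifs of these pathways and for the likeness of AKR1C1 and AKR1C2. RefSeq windows of 300 bases, from 250 before to 50 after the gene start in GRCh38.p14, were at hand for 4 of the 6 genes (AKR1C1, AKR1C2, CYP1A1 and GPX2). Only bases before the start are printed, 5′ to 3′ on the strand of the gene. The AKR1C1 and AKR1C2 windows share 1 run of 245 identical bases, at chr10:4963169-4963413 on the plus strand for AKR1C1 and chr10:5003863-5004107 on the minus strand for AKR1C2, and are 93.5% identical over the whole aligned window. The shared run is shown because it is the longest stretch that these windows of the neighbouring genes have in common. It begins at the edge of the AKR1C2 window, at position -250, and may extend farther. In the GPX2 and CYP1A1 stretches the capitals mark the core of the antioxidant response element (TGACNNNGC, here on the opposite strand) and of the xenobiotic response element (GCGTG).
AKR1C1 and AKR1C2, shared run: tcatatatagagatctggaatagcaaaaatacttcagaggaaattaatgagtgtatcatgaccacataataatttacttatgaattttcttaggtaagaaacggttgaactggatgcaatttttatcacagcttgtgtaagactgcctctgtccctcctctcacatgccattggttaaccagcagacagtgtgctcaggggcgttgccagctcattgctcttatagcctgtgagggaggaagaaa
GPX2, chr14:64942829-64942897, minus strand: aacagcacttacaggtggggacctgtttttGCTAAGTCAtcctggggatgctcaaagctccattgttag
CYP1A1, chr15:74725551-74725615, minus strand: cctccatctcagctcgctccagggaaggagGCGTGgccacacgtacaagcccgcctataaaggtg
Both motifs were searched on both strands, and no match of one overlapped a match of the other in these windows. TGACNNNGC was found in 1 of the 4 windows, GPX2, at positions -122 to -114 from the start, and in 13.3% of 35116 promoters of the same length. GCGTG was found in 1 of the 4, CYP1A1, at positions -57 to -53 from the start, and in 36.5% of those promoters. A match is a run of letters and not a shown binding site, and its absence from a window says nothing of sites farther away.

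Which transcripts mitoxantrone changed was the single question of the design, and all 6 genes were lower with mitoxantrone, at fitted levels from 9.96% (AKR1C2) to 29.2% (SLC7A11) of those with DMSO. The table holds only genes that the authors had already called changed on these libraries, with a log2 change of 1.0 or more in size, so that a change in each gene was a condition of its being listed. The quasi-likelihood test of edgeR, adjusted by the Benjamini-Hochberg method, called all 6 lower at a threshold of 0.05. It called 35.3% of all listed genes lower and 92% in either direction. The mitoxantrone and DMSO libraries did not overlap for any of the 6, against 38.5% of listed genes that were lower without overlap and 98.6% without overlap in either direction. The median log2 fold change of the 6 genes was -2.29, against -1.51 over the 512 listed genes with a fitted fall. In bulk RNA, fewer cells that express a gene and less of its RNA per cell cannot be told apart.

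**Figure D1:**
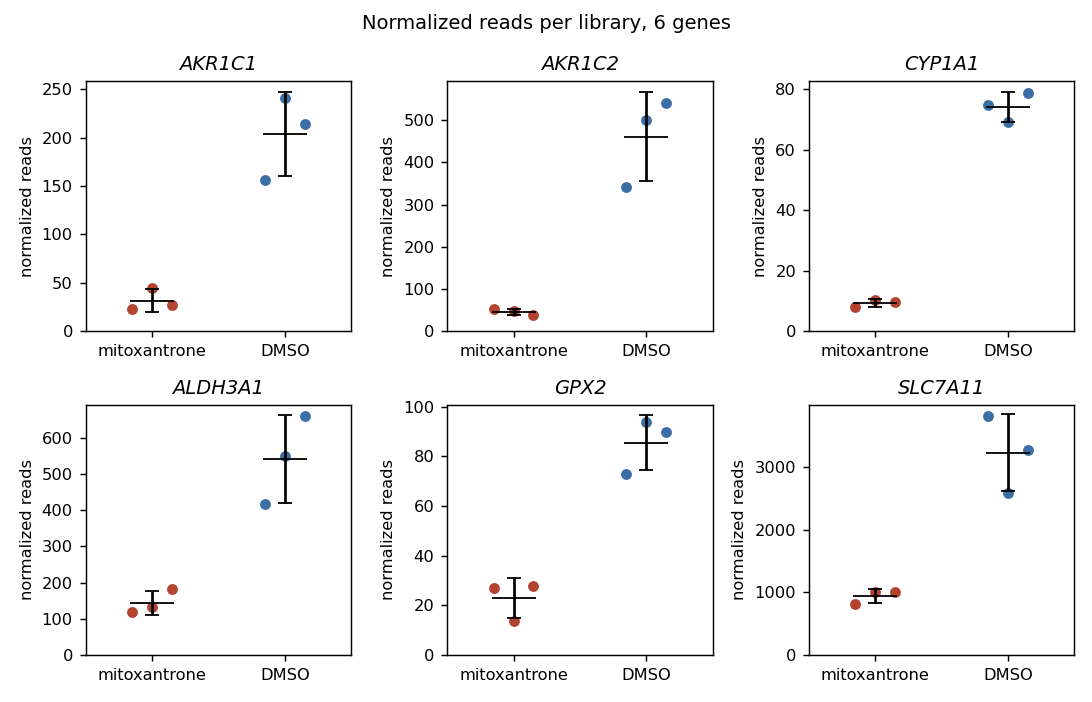
Normalized reads (vertical axis, from 0, a scale of its own for each gene) in each mitoxantrone library, left, and each DMSO library, right. Points are libraries, and bars show the mean and SD of 3 libraries. For every gene the mitoxantrone points lie below all DMSO points, closest for ALDH3A1, where the highest mitoxantrone library stood at 43.9% of the lowest DMSO library.

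The depth was 14762592 to 15663284 assigned reads in the mitoxantrone libraries and 15789222 to 17817829 in the DMSO libraries, as solved from the deposited FPKM values (fragments scaled to gene length and library size). The 6 genes together took 927, 1202 and 1199 of these reads with mitoxantrone, against 5683, 3926 and 5678 with DMSO. Of 6 epithelial markers, KRT8 and KRT18 were listed, and their summed level was 122465 to 152988 normalized reads with mitoxantrone and 46889 to 63695 with DMSO. Of 15 markers of fibroblasts, leukocytes and endothelium, COL1A1, CD14 and CDH5 were listed, with a summed level of 354 to 412 normalized reads with mitoxantrone and 738 to 978 with DMSO. The part of these shifts in the results below was not tested, and markers outside the table were not analysed here.

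AKR1C2 had the steepest fall of the 6. It encodes an aldo-keto reductase that reduces steroids such as dihydrotestosterone and the carbonyl groups of drugs. Its normalized reads (reads divided by the size factor of the library) were 53.1, 46.9 and 37.6 with mitoxantrone, against 342, 501 and 541 with DMSO. The highest mitoxantrone library held 15.5% of the lowest DMSO library. The log2 fold change was -3.33 (standard error 0.21), at an adjusted p of 4.3e-08 by edgeR. The authors' deposited table gave a log2 fold change of -3.11. Ordered by those deposited values AKR1C2 ranked 3 among the 512 listed falls, and by the edgeR fit it ranked 13. The gene, ENSG00000151632, lies on chromosome 10 at 5029967 to 5060223, minus strand, in the coordinates of the file. The build of these coordinates is not given in the sources used here, and they differ from those of the GRCh38 annotation.

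AKR1C1, its neighbour at 4934796 to 5025475 on the plus strand (ENSG00000187134), encodes a close relative that inactivates progesterone. It had 22.6, 44.8 and 26.8 normalized reads with mitoxantrone, against 156, 241 and 214 with DMSO. The 3 mitoxantrone libraries lay well apart from one another, with a coefficient of variation of 37.5% against 21.5% in DMSO libraries, the second mitoxantrone library being the high one. They held only 20, 43 and 25 raw reads. The log2 fold change was -2.68 (standard error 0.25), at an adjusted p of 2.0e-06 by edgeR. The summed reads with mitoxantrone amounted to 15.7% of those with DMSO after scaling, with a 95% exact binomial interval of 12.5% to 19.7% that covers counting error only.

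The annotation in the deposited table assigns daunorubicin and doxorubicin metabolism, the handling of anthracycline drugs, to AKR1C1, AKR1C2 and 1 more listed gene, their neighbour AKR1C3. No other listed gene carried these terms. AKR1C3 makes prostaglandin F and reduces androgen precursors. It fell to 84.8, 86.5 and 89.1 normalized reads with mitoxantrone, against 169, 233 and 236 with DMSO, a log2 fold change of -1.29 (standard error 0.18). The 3 genes stand side by side in the file, 4491 bases apart between AKR1C1 and AKR1C2 and 17322 bases between AKR1C2 and AKR1C3.

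AKR1C3 took a larger part of the joint reads of the 3 genes in every mitoxantrone library than in any DMSO library, and AKR1C2 a smaller one. AKR1C3 made up 52.8%, 48.5% and 58.0% of AKR1C1, AKR1C2 and AKR1C3 reads in the mitoxantrone libraries, against 25.4%, 23.9% and 23.8% in the DMSO libraries. The joint reads numbered 142, 171 and 143 with mitoxantrone and 776, 946 and 1158 with DMSO. AKR1C2 made up 33.1%, 26.3% and 24.5% with mitoxantrone, against 51.3%, 51.4% and 54.6% with DMSO. The share of AKR1C1 overlapped between treatments, at 14.1%, 25.1% and 17.5% with mitoxantrone and 23.3%, 24.7% and 21.6% with DMSO. Exact binomial 95% intervals of the AKR1C3 share ran from 40.8% to 66.2% over the mitoxantrone libraries and from 21.2% to 28.6% over the DMSO libraries, for counting error only.

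Tested over libraries, the log2 ratio of AKR1C2 to AKR1C3 reads was -0.93 ± 0.29 with mitoxantrone and 1.10 ± 0.09 with DMSO (SD, n = 3 each), a difference of -2.04 with p = 0.1 (two-sided exact permutation test). The ratio of AKR1C1 to AKR1C3 differed by -1.46, also at p = 0.1 in the exact permutation test. That is the smallest p that 3 libraries against 3 allow, and both came to 0.15 after Benjamini-Hochberg adjustment over 3 ratios. The ratio of AKR1C2 to AKR1C1 was 0.59 ± 0.59 with mitoxantrone and 1.18 ± 0.15 with DMSO (SD, n = 3 each). Its difference of -0.58 had p = 0.3 (two-sided exact permutation test) and the first mitoxantrone library, at 1.23, lay among the DMSO values of 1.05 to 1.34. With 3 libraries against 3 no difference could have passed 0.05, so whether AKR1C2 and AKR1C1 fell by different factors is not settled. Without the second mitoxantrone library that difference was -0.32, and without the first it was -0.90.

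**Figure D2:**
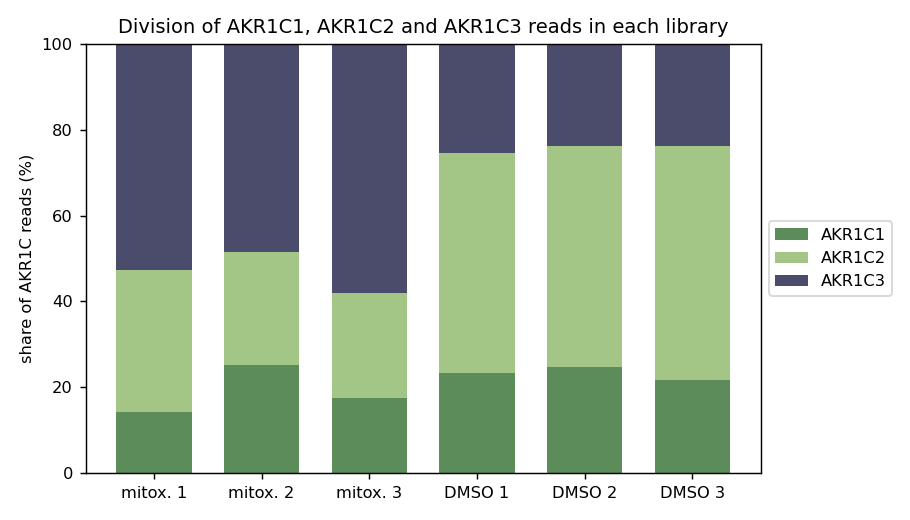
Share of the reads of 3 neighbouring aldo-keto reductase genes (vertical axis, percent) in each of the 3 mitoxantrone libraries, left, and 3 DMSO libraries, right, with AKR1C1 at the base, AKR1C2 in the middle and AKR1C3 on top. The AKR1C3 share is 48.5% to 58.0% with mitoxantrone and 23.8% to 25.4% with DMSO.

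How reads are divided among these genes is uncertain because their sequences are close. Over the coding sequences of GENCODE release 29, each of 972 bases, AKR1C1 and AKR1C2 differed at 19 aligned positions (98% identical), and AKR1C3 differed from AKR1C1 at 81 and from AKR1C2 at 85. Of the 823 windows of 150 bases in the AKR1C1 coding sequence, the length of 1 read, 41 (4.98%) occur unchanged in AKR1C2 and 0 in AKR1C3. Of those of AKR1C2, 22 (2.67%) occur unchanged in AKR1C3. The lengths that the file gives are 9423 bases for AKR1C1, 6086 for AKR1C2 and 4532 for AKR1C3. Most of that sequence lies outside the coding bases and was not compared, and the windows stand for single reads where reads came in pairs. With the reads of all 3 genes added to 1 row the log2 fold change was -2.42, at an adjusted p of 1.1e-07 by edgeR. This value does not depend on how the counted reads were divided among the 3. Any reads of shared stretches that were left uncounted are not restored by the sum.

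CYP1A1 encodes a cytochrome P450 that oxidizes polycyclic hydrocarbons and is among the most inducible targets of AHR. It had 7.92, 10.4 and 9.66 normalized reads with mitoxantrone, against 74.8, 69.0 and 78.8 with DMSO. The DMSO libraries lay closer together than for the other 5 genes, with a coefficient of variation of 6.63%, and the treatments were far apart. From DMSO libraries of 87, 67 and 92 raw reads, so small a spread is no measure of how steady the gene is. The log2 fold change was -2.97 (standard error 0.28), at an adjusted p of 2.3e-06 by edgeR. Only 7, 10 and 9 raw reads were behind the mitoxantrone values, and the ratio to DMSO of 12.6% had a 95% exact binomial interval of 8.05% to 18.9%. The authors' deposited table gave a smaller log2 fold change of -2.48. CYP1A1 (ENSG00000140465) lies on chromosome 15 at 75011883 to 75017951, minus strand, in the file.

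ALDH3A1 encodes an aldehyde dehydrogenase that oxidizes aldehydes from lipid peroxidation and is abundant in airway and corneal epithelium. It had 119.9, 131 and 182 normalized reads with mitoxantrone, against 416, 549 and 659.7 with DMSO. The log2 fold change was -1.90 (standard error 0.20), at an adjusted p of 5.0e-06 by edgeR. Spread was alike in both groups, with coefficients of variation of 23.1% with mitoxantrone and 22.5% with DMSO. ALDH3A1 (ENSG00000108602) is on chromosome 17 at 19641297 to 19652256, minus strand.

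GPX2 encodes a selenium-containing peroxidase of epithelial cells that uses glutathione to reduce hydrogen peroxide, and its promoter stretch shown above carries the antioxidant response element core. It had 27.1, 13.5 and 27.9 normalized reads with mitoxantrone, against 73.0, 93.8 and 90.0 with DMSO. The second mitoxantrone library was the low one, with 13 raw reads against 24 and 26 in the others, whereas for AKR1C1 the same library was the high one. The log2 fold change was -1.90 (standard error 0.27), at an adjusted p of 1.3e-04 by edgeR. Without that library it was -1.63. GPX2 (ENSG00000176153) is on chromosome 14 at 65405870 to 65409531, minus strand.

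SLC7A11 encodes the light chain of the exchanger that brings in cystine for glutathione synthesis and lets glutamate out. It had 818, 1006 and 1003 normalized reads with mitoxantrone, against 3822, 2591 and 3281 with DMSO. The second DMSO library was the lowest of its group, and still lay above every mitoxantrone library. The log2 fold change was -1.78 (standard error 0.16), at an adjusted p of 1.5e-06 by edgeR. The ratio of 28.9% had a counting interval of 27.7% to 30.2%, narrow beside coefficients of variation of 11.4% with mitoxantrone and 19.1% with DMSO. SLC7A11 (ENSG00000151012) is on chromosome 4 at 139085251 to 139163503, minus strand. No other listed gene overlapped any of the 6 in the coordinates of the file. Overlap with genes outside the table was not examined.

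Per length, the order of the genes differed between treatments. In FPKM, SLC7A11 led with 6.0 ± 0.80 with mitoxantrone and 21.7 ± 4.88 with DMSO (SD, n = 3 each), and ALDH3A1 followed with 2.27 ± 0.58 with mitoxantrone and 8.89 ± 2.02 with DMSO. GPX2 came next with mitoxantrone, at 0.59 to 1.25 FPKM and above every AKR1C2 value of 0.39 to 0.52. With DMSO the ranges of GPX2 (3.43 to 4.19) and AKR1C2 (3.72 to 5.83) overlapped, but AKR1C2 was the higher within every DMSO library. CYP1A1 and AKR1C1 were the lowest and overlapped each other in both treatments, at 0.14 to 0.19 and 0.14 to 0.29 FPKM with mitoxantrone and at 1.24 to 1.5 and 1.09 to 1.57 FPKM with DMSO. FPKM divides by the length the file gives for each gene, which ranges from 1407 bases (GPX2) to 9645 (SLC7A11) and is 9423 for AKR1C1. SLC7A11 supplied 57.0% to 64.0% of the summed FPKM of the 6 genes with mitoxantrone and 44.5% to 61.1% with DMSO.

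**Figure D3:**
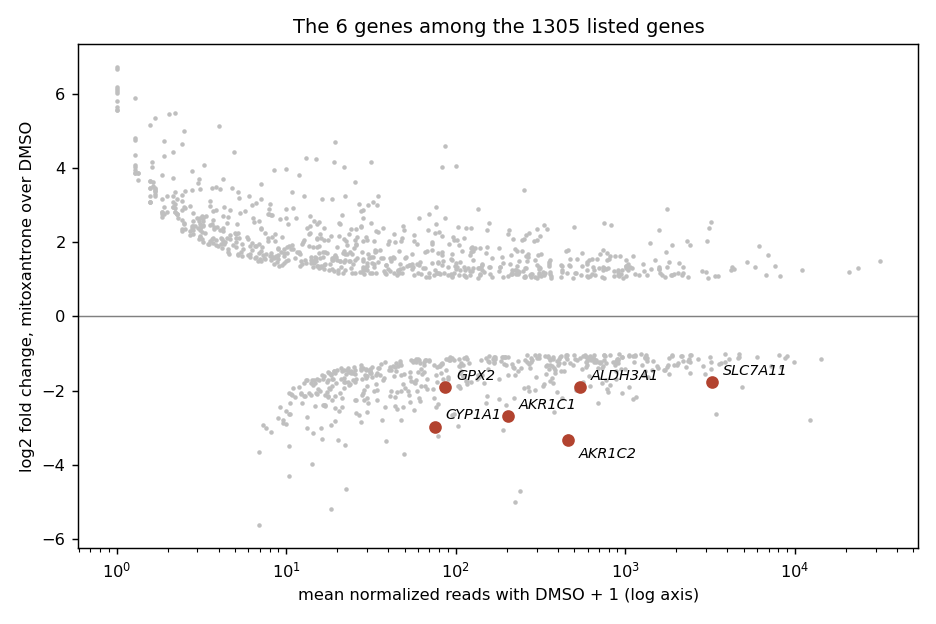
Log2 fold change of mitoxantrone over DMSO (vertical axis) against mean normalized reads with DMSO plus 1 (log axis) for all 1305 listed genes in grey, with the 6 genes in red. The band around 0 is empty because the table leaves out small changes, and the 6 genes lie between -3.33 and -1.78.

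Ordered from the steepest among the 512 listed genes with a fitted fall, AKR1C2 ranked 13, CYP1A1 24 and AKR1C1 38, and ALDH3A1, GPX2 and SLC7A11 ranked 139, 142 and 170. By the fold changes that the authors deposited, the ranks were 3, 11, 13, 56, 75 and 67 in the same order of genes. Both sets of ranks describe the selected table only.

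By the Euclidean distance between log2 profiles centred on each gene over the 6 libraries, AKR1C2 was closest to ATOH8 (0.27) and RARRES1 (0.63), and AKR1C1 to RP1-193H18.2 (0.37) and NOTUM (0.65). NOTUM averaged only 0.347 normalized reads with mitoxantrone and 9.44 with DMSO. The 1 added to reads before the log shrinks its fall, fitted at -4.3, so that its nearness is no sign of a like change. RP1-193H18.2 was also low, at 6.45 with mitoxantrone and 46.3 with DMSO. CYP1A1 was closest to H19 (0.41) and SCD (0.58), and ALDH3A1 to ALPP (0.25) and STRA6 (0.38). GPX2 was closest to LDOC1 (0.21) and RP11-54O7.3 (0.22), and SLC7A11 to DMBX1 (0.16) and B4GALNT1 (0.23). No nearest gene was one of the 6. Among the 6 the closest pair was AKR1C1 and CYP1A1, at 0.75, ahead of ALDH3A1 and GPX2 at 0.82 and ALDH3A1 and SLC7A11 at 0.84. AKR1C2 and CYP1A1 followed at 0.91, and AKR1C1 and AKR1C2 at 1.11. All profiles share the 6 libraries and hold the difference between treatments.

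Of 33 other known NRF2 targets, 6 were listed, where 1305 of about 18314 genes tested by the authors were listed. Of these 6 targets, 5 fell and 1 rose, where 35.3% of all listed genes fell and 56.7% rose. Their median log2 fold change was -1.30, against 1.26 over all listed genes. PIR, an iron-binding nuclear protein, fell to 96.1, 94.8 and 74.1 normalized reads with mitoxantrone, against 261, 378 and 342 with DMSO, a log2 fold change of -1.89. CBR3, a carbonyl reductase that acts on drugs, and TRIM16L each had a log2 fold change of -1.32. FTL, the light chain of the iron store ferritin, averaged 4026 ± 495 normalized reads with mitoxantrone and 8809.7 ± 2233 with DMSO (SD, n = 3 each), a log2 fold change of -1.13. AKR1C3 was the fifth that fell. ABCC2, an efflux pump for conjugated drugs, rose to 127 ± 10.2 normalized reads with mitoxantrone, against 42.2 ± 8.93 with DMSO (SD, n = 3 each). Reads of FTL and TRIM16L may be shared with near-identical copies. None of the 10 regulators and partners of NRF2, among them NFE2L2 (NRF2 itself) and KEAP1, was in the table. They were not analysed here.

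Of the 10 genes of the AHR list, 2 were listed, CYP1B1, which fell, and ARNT2, which rose. Over all listed genes 35.3% fell and 56.7% rose, and AHR genes that were not listed were not analysed here. CYP1B1, a second hydrocarbon-oxidizing P450, had 52.0, 33.3 and 30.1 normalized reads with mitoxantrone, against 191, 150.4 and 199.6 with DMSO, a log2 fold change of -2.23 (standard error 0.22). ARNT2, a paralogue of the AHR partner ARNT, had 1242, 1341 and 1313 normalized reads with mitoxantrone, against 266, 249 and 298 with DMSO, a log2 fold change of 2.26.

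Other genes of glutathione metabolism moved both ways. GGT1, which breaks down glutathione outside the cell, rose to 146, 124 and 107 normalized reads with mitoxantrone, against 30.1, 27.8 and 27.4 with DMSO. GLRX, a glutaredoxin that removes glutathione from proteins, rose with a log2 fold change of 1.48. GSTM2, a glutathione transferase, averaged 10.3 ± 4.15 normalized reads with mitoxantrone and 27.5 ± 5.12 with DMSO (SD, n = 3 each), at an adjusted p of 0.032 (edgeR) that became 0.066 with DESeq2 and 0.078 to 0.17 without mitoxantrone replicate 1 or 3 or DMSO replicate 1 or 3. In all, 3 of 37 genes of the glutathione and peroxide list were in the table.

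Of 18 genes of cystine transport and amino acid stress, 4 were listed, of which 2 rose and 2 fell, where 56.7% of all listed genes rose and 35.3% fell. CHAC1, which degrades glutathione inside the cell, had a log2 fold change of 1.48, and the stress sensor SESN2 one of 1.21. PHGDH, the first enzyme of serine synthesis, fell to 889 ± 84.3 normalized reads with mitoxantrone, against 2287 ± 287 with DMSO (SD, n = 3 each), and DDIT4, an inhibitor of growth signalling, had a log2 fold change of -1.09. SLC3A2, the heavy chain that carries SLC7A11 to the membrane, was not analysed here.

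Of 36 other cytochromes P450, 6 were listed, of which 3 rose and 3 fell, where 56.7% of all listed genes rose and 35.3% fell. The P450 genes that were not listed were not analysed here. Besides CYP1B1, CYP24A1, which inactivates the vitamin D hormone, fell with a log2 fold change of -2.01, and CYP26A1, which degrades retinoic acid, had one of -1.68 and an adjusted p of 0.029. That p was 0.14 without mitoxantrone replicate 2, 0.16 without DMSO replicate 1 and 0.055 without DMSO replicate 3 (edgeR). CYP2J2, an epoxygenase, CYP3A5, a broad drug oxidizer, and CYP27B1, which makes the vitamin D hormone, rose with log2 fold changes of 1.88, 1.60 and 1.18. Of 18 other aldehyde dehydrogenases, ALDH1A2, which makes retinoic acid, was listed, at -1.23 on the log2 scale. Its adjusted p of 0.015 by edgeR ranged from 0.054 to 0.14 without mitoxantrone replicate 2 or 3 or DMSO replicate 1 or 3, and was 0.15 or 0.17 by limma. Of 39 conjugating and hydrolysing enzymes, 2 were listed, the carboxylesterase genes CES2 and CES3, which rose with log2 fold changes of 1.17 and 1.28. Of 7 drug efflux pumps ABCC2 was listed, and of 10 other aldo-keto reductases AKR1C3.

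Over all these lists, 23 of 204 genes were in the table, which holds 1305 of about 18314 genes tested by the authors. Of the 23, 12 fell and 11 rose, against 35.3% and 56.7% of all listed genes. The median log2 fold change of the 23 was -1.09. The 181 others were not analysed here. The size factors came from the authors, who had all their genes. Factors computed from the selected genes alone shifted the median log2 fold change of all listed genes by -0.69 (TMM) or -0.99 (DESeq2), and the split of the 23 became 6 higher and 12 lower or 2 higher and 12 lower. The split over all listed genes then became 366 higher and 512 lower, or 219 and 512, in place of 740 and 461. The rises given here are relative to the scaling of the authors. Both other scalings shift the listed genes downwards and call 512 of them lower, so that keeping the falls of the 6 genes under them is no sign of stability.

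**Figure D4:**
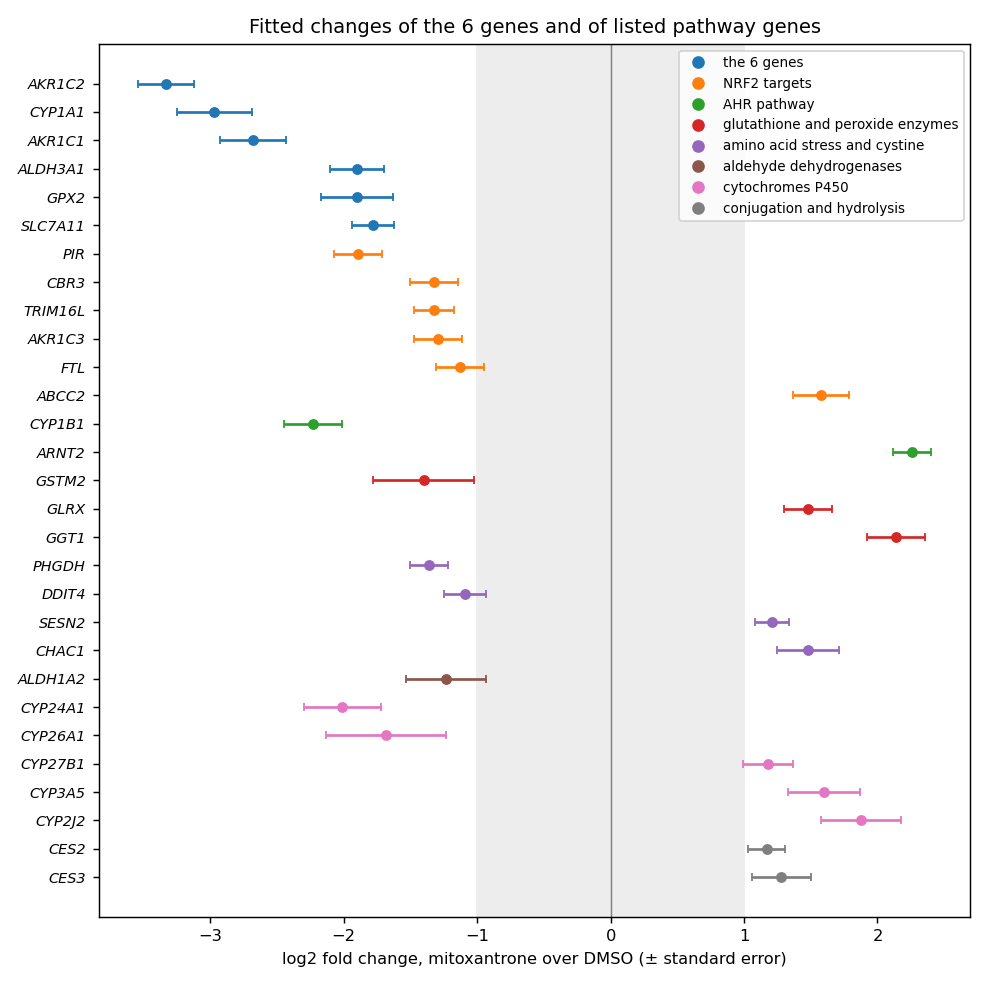
Log2 fold change of mitoxantrone over DMSO (horizontal axis, bars show the standard error) for the 6 genes, at the top, and for 23 listed genes of the pathway lists, coloured by list. Genes of several lists are drawn once, and grey shading marks the range below the fold threshold of the table. The 6 genes run from -3.33 to -1.78, and of the NRF2 targets ABCC2 alone lies to the right of 0.

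Broader terms that the deposited annotation gives to some of the 6 genes held listed genes that moved both ways. Xenobiotic metabolic process, carried by AKR1C1 and CYP1A1, was assigned to 11 listed genes, of which 6 fell and 5 rose. Response to oxidative stress, carried by GPX2 and SLC7A11, was assigned to 10, of which 3 fell and 7 rose. Over all listed genes 35.3% fell and 56.7% rose, and a split near these shares says nothing particular of a term. Those that rose include PTGS2, a prostaglandin synthase, and RRM2B, a subunit of ribonucleotide reductase, with log2 fold changes of 2.43 and 1.42. These terms and both genes, like the anthracycline terms, were chosen after the values had been seen.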

How the data were processed

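RNA sequencing of 6 libraries was read as pairs of 150 bases, per the labels' protocols, which name both poly(A) selection and ribosomal RNA removal and no strand setting. Without strand, reads of overlapping genes cannot be told apart. Per the submitters' processing notes, HISAT2 2.0.1 and cutadapt 1.9.1 were used, with DESeq2, Cufflinks 2.2.1 and HTSeq 0.6.1, in roles and an order that are not stated. The genome build is not given in the sources used here, nor is the annotation.

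The authors' table of 1305 selected genes gives FPKM and raw read counts for each library, per the file headers. Further columns deposited by the authors are the mean normalized count (a signal value), log2 fold change with its standard error, Wald score, p-value and adjusted p-value, and a gene length in bases.

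Size factors were solved from deposited counts and mean normalized counts (largest relative error 5.0e-10), and library totals from FPKM. Adjusted over raw p-values gave about 18314 genes tested by the authors (18312 to 18315). The test on counts was the quasi-likelihood test of edgeR 4.0.16 in R 4.3.3, with treatment alone, those size factors, no filter, and Benjamini-Hochberg adjustment over 18314 tests with ranks among listed genes. Dispersions from genes selected as changed tend to be low and their folds large. The code was tested on simulated data. Ratios were tested with exact permutations (scipy 1.17.1). Coding sequences were aligned with Biopython 1.88, and promoters come from RefSeq.

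Members and lists were chosen with earlier results of these data known. Named were the 6 genes, every listed gene of the lists, and the 2 listed genes nearest to each of the 6 in log2(normalized reads + 1). Alternatives were TMM and DESeq2 size factors, library totals, a minimum mean of 10, DESeq2 1.42.0, limma 3.58.1 on log2(FPKM + 1) or log2(FPKM + 0.1), adjustment over listed genes, a replicate block, and leaving out each library. No 2 libraries were duplicates (chi-square per gene 2.91 to 25.43 within a treatment).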

Additional observations from a re-analysis of the deposited data

How the results depend on the processing

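All 6 genes stayed lower and called under all 15 alternatives to the fit, and leaving out 1 library gave 6 called lower each time. TMM and DESeq2 size factors shift the listed genes downwards and cannot test a fall. Adjustment over listed genes called 793 higher and 512 lower, which is every listed gene, and so could not fail. The rest reuse libraries on which the authors had already selected these genes, so that keeping the calls is no independent support. The log2 fold changes of the 6 genes ran from -4.32 to -0.98 over 92 values. The shallow end came from log2(FPKM + 1), a scale that understates the change of weakly expressed genes such as AKR1C1 (-0.98) and CYP1A1 (-1.03). The largest adjusted p was 0.0012. For the 23 pathway genes 316 of 345 values kept direction and side of the threshold and 29 lost the call, none reversing. Genes called higher were 366 with TMM and 219 with DESeq2 size factors, both computed over listed genes, and pathway genes called higher were 6 and 2, because these factors centre a set that is mostly higher. Leaving out 1 library gave 395 to 463 listed genes lower, 622 to 715 higher, 9 to 12 pathway genes lower, 11 to 11 higher, and a difference in the AKR1C2 to AKR1C1 log2 ratio of -0.90 to -0.32. Deviations from the group mean correlated at -0.13, -0.08 and 0.07 between libraries of the same replicate number. Between libraries of different numbers the correlations ran from -0.15 to 0.21. Whether the numbers pair the libraries is not settled by these values, from selected genes and 3 libraries per group. With the replicate block 463 listed genes were lower and 736 higher, 6 of the 6 genes were lower, 12 pathway genes were lower and 11 higher, and the AKR1C2 to AKR1C1 difference of -0.58 had p = 0.5 in an exact sign-flip test. Read numbers limit CYP1A1, GPX2 and AKR1C1 with mitoxantrone, and genes outside the table were not analysed here.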
